A study of Mus musculus with 9 samples.

Results

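Fatty acid beta-oxidation is carried out in mitochondria and in peroxisomes, and the 33 genes described here encode the enzymes and transporters of both. They are the genes of the deposited count table whose symbols stood on a fixed list of beta-oxidation genes, 18 of them mitochondrial and 15 peroxisomal, among 24539 genes in the table. All 33 were present and all 33 passed the filter on low counts that left 16745 genes to be tested. RNA was sequenced from inguinal white adipose tissue, a subcutaneous fat depot, of 9 C57BL/6 mice kept on chow, each giving 1 library. Floxed WT control mice numbered 2 at room temperature (RT) and 3 after 4 h of cold at 4 °C. Mice labelled as adipose-specific Tet1 KO numbered 2 at RT and 2 after the cold exposure. All animals, controls included, belonged to a line in which Tet1, a DNA demethylase, is floxed, and in the KO mice it is deleted by Fabp4-Cre, a driver that can also be active outside adipocytes. The design text speaks of fractionated adipocytes and of 3 mice per group, whereas the sample labels describe frozen whole tissue and give the numbers above.

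Mitochondrial beta-oxidation shortens an activated fatty acid in a cycle of 4 steps. An acyl-CoA dehydrogenase, chosen by chain length, introduces a double bond and hands its electrons to the electron transfer flavoprotein. Hydration, a second oxidation and thiolytic cleavage follow, for long chains on the trifunctional protein of HADHA and HADHB. Peroxisomes run the same chemistry with an oxidase in place of the dehydrogenase, act on very-long-chain and branched substrates, and pass shortened chains to mitochondria. In brown and beige adipocytes these pathways supply fuel for heat production, and many of their genes are known targets of the peroxisome proliferator-activated receptors (PPARs).

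Promoter windows, from 250 bases before to 50 bases after the RefSeq start (GRCm38.p6), were found for 28 of the 33 genes. The Hadhb, Acadvl and Ehhadh windows are shown because Hadhb and Acadvl were among the 3 genes whose KO-labelled and WT libraries did not overlap, and because Ehhadh had opposite signs for genotype and cold. Other members, such as Pecr and Eci1, also had opposite signs. Capitals mark GC boxes (GGGCGG) and CCAAT boxes on either strand.
Hadhb, chr5:30155003-30155302, plus strand: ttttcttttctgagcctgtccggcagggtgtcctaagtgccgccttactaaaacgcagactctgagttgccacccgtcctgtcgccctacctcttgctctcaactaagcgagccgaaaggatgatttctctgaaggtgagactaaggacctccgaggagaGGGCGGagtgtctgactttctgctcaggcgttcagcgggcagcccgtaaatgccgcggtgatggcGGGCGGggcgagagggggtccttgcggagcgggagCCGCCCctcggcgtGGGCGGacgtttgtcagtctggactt
Acadvl, chr11:70015379-70015678, minus strand: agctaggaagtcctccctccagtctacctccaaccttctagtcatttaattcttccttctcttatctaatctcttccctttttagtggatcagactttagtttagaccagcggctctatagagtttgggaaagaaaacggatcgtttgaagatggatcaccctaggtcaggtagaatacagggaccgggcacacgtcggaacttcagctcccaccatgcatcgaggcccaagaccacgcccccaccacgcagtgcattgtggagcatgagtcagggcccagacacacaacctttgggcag
Ehhadh, chr16:21787785-21788084, minus strand: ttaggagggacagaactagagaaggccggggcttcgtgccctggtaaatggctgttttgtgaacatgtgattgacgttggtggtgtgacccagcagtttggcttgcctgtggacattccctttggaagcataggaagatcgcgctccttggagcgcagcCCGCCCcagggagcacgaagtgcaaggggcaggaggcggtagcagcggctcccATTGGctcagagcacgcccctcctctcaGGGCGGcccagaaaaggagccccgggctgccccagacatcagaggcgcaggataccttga

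Hadhb and Hadha, which encode the subunits of the trifunctional protein, lie head to head on chromosome 5. Between their RefSeq starts lay 272 bases, and the first 228 bases of the Hadhb window shown above were also in the Hadha window, read from the other strand. The Hadhb window held 4 GC boxes, the Ehhadh window held 2 GC boxes and 1 CCAAT box, and the Acadvl window held neither. Across the 29 windows of the members (1 gene had 2) a GC box was in 72.4%, against 35.7% of all 32851 windows, and a CCAAT box in 41.4% against 37.4%. The shares over all windows and genes, here and below, include genes outside the 16745 tested. All members passed that filter, and no share over the tested genes alone was computed. The element bound by PPARs with their partner RXR, called DR1, consists of 2 copies of AGGTCA in the same direction with 1 base between them. With up to 2 mismatches it was found on either strand in 2 of 28 genes (7.14%), against 4.40% of 27025 genes. The matches were AGGGCAAAGGTAA in the window of Etfa and AGGTCACGGGTCC in that of Echs1. The element of the estrogen-related receptors, TCAAGGTCA, was in none of the 29 windows and in 0.423% of all windows. These matches describe the letters in short windows, and no binding was measured.

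Totals ranged from 47605902 to 56292251 counts per library. Housing labels disagreed for 2 KO-labelled mice. For mouse 1781 the sample title gives RT and the column of the table gives cold. For mouse 1786 it is the other way round. The column names were followed, and values with the titles or without both mice are given where they matter. Tet1 itself was 3.87 to 5.33 CPM (counts scaled to a common library size, here with TMM) in the 5 WT libraries and 5.30 to 12.3 CPM in the 4 KO-labelled libraries, so the counts did not show the deletion. The mean Tet1 difference was 0.96 on the log2 scale (adjusted p = 0.292, edgeR's quasi-likelihood test), and a count over the whole gene does not separate the floxed part from the rest. Directions for genotype below therefore rest on the labels. Mouse 1781 stood apart in its adipocyte markers. The summed level of 8 such genes was 10464 CPM there and 17537 to 23526 CPM in the other 8 libraries, and none of the 8 genes was at 0. Nothing in the labels gives a litter, so p-values measure the spread between these mice only.

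The members were expressed over a wide range per length. In the RPKM values deposited by the authors (reads scaled to gene length and library size), read in the 7 libraries without a label conflict, Etfb, the beta subunit of the electron transfer flavoprotein, had the highest mean at 219 ± 27.7 RPKM (SD, n = 7). Acadl, the long-chain acyl-CoA dehydrogenase, followed at 198 ± 41.2 RPKM. Phyh, the peroxisomal hydroxylase that starts the breakdown of phytanic acid, and Scp2, which encodes a sterol carrier and thiolase, came next at 192 ± 56.05 and 189 ± 14.0 RPKM. All 4 lay above the 98th percentile of the genes tested. The means pool the groups, and in WT at RT alone Scp2 ranked 2 and Phyh 7 among the members. At the other end stood Acad10 with 5.93 ± 1.49 RPKM and Amacr, the racemase for branched acyl-CoAs, with 4.85 ± 0.551 RPKM. Of the 32 pairs of neighbours in this order, 32 had ranges over the libraries that overlapped, so the order of neighbours is not resolved. Among the 10 lowest genes, 9 were peroxisomal.

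**Figure D1:**
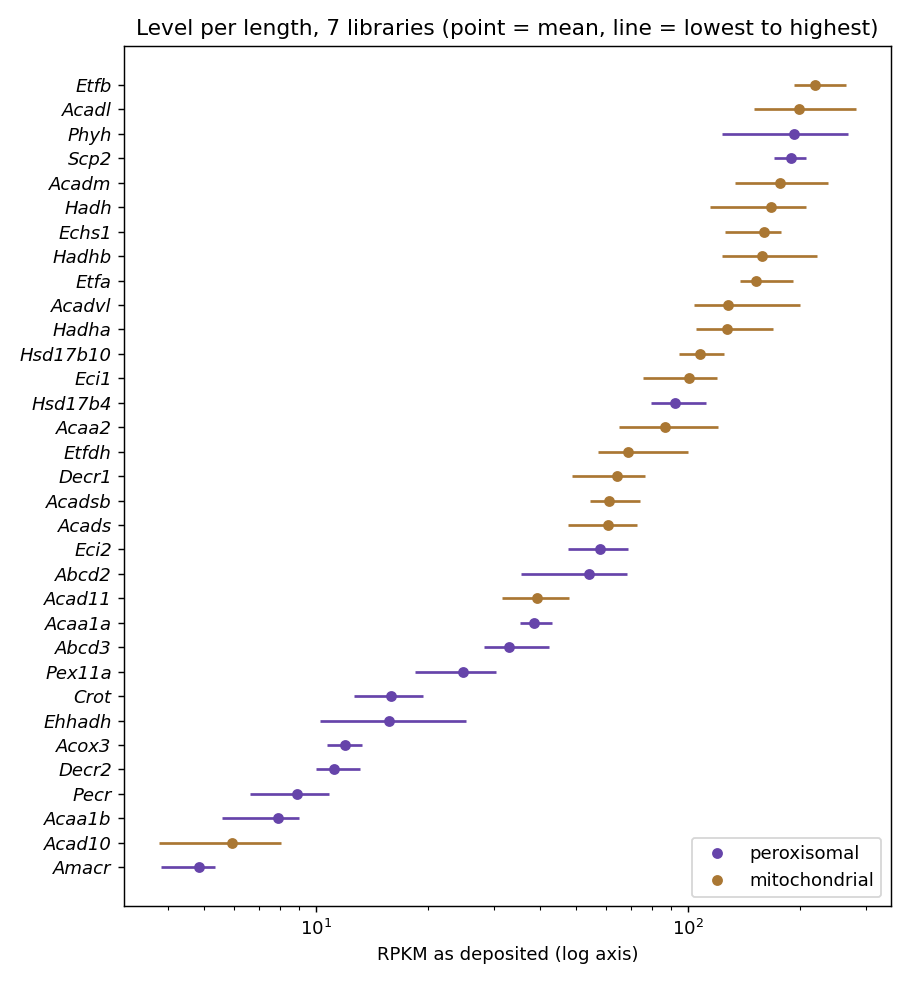
RPKM of each member on a log axis in the 7 libraries without a label conflict, with the mean as a point and the range as a line, coloured by compartment. Etfb stood highest at 219 RPKM and Amacr lowest at 4.85 RPKM, and each range overlapped that of the next gene.

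The first question was whether the KO-labelled mice differed from WT in these genes. Averaged over both housings, 1 member passed the thresholds (adjusted p under 0.05 and a fold change above 1.5), and it rose. This was Acaa2, the mitochondrial 3-ketoacyl-CoA thiolase of the last step, 1.62-fold higher in the KO-labelled mice. Of all genes tested, 0.125% passed. DESeq2 also called 1 member, Acaa2, beside 1.4% of all genes. At an unadjusted p under 0.05, 7 members were higher (5 mitochondrial and 2 peroxisomal) and 0 lower, where 5.14% of all genes were higher and 6.48% lower. Log2 fold changes were positive for 16 of 18 mitochondrial and 12 of 15 peroxisomal members, with medians of 0.16 and 0.07 beside a median near 0 (-4.70e-05) over all genes. Without mouse 1782, 8 of 18 and 7 of 15 were positive, with medians of -0.034 and -0.026. In bulk tissue, fewer cells of a type and less RNA per cell cannot be told apart.

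**Figure D2:**
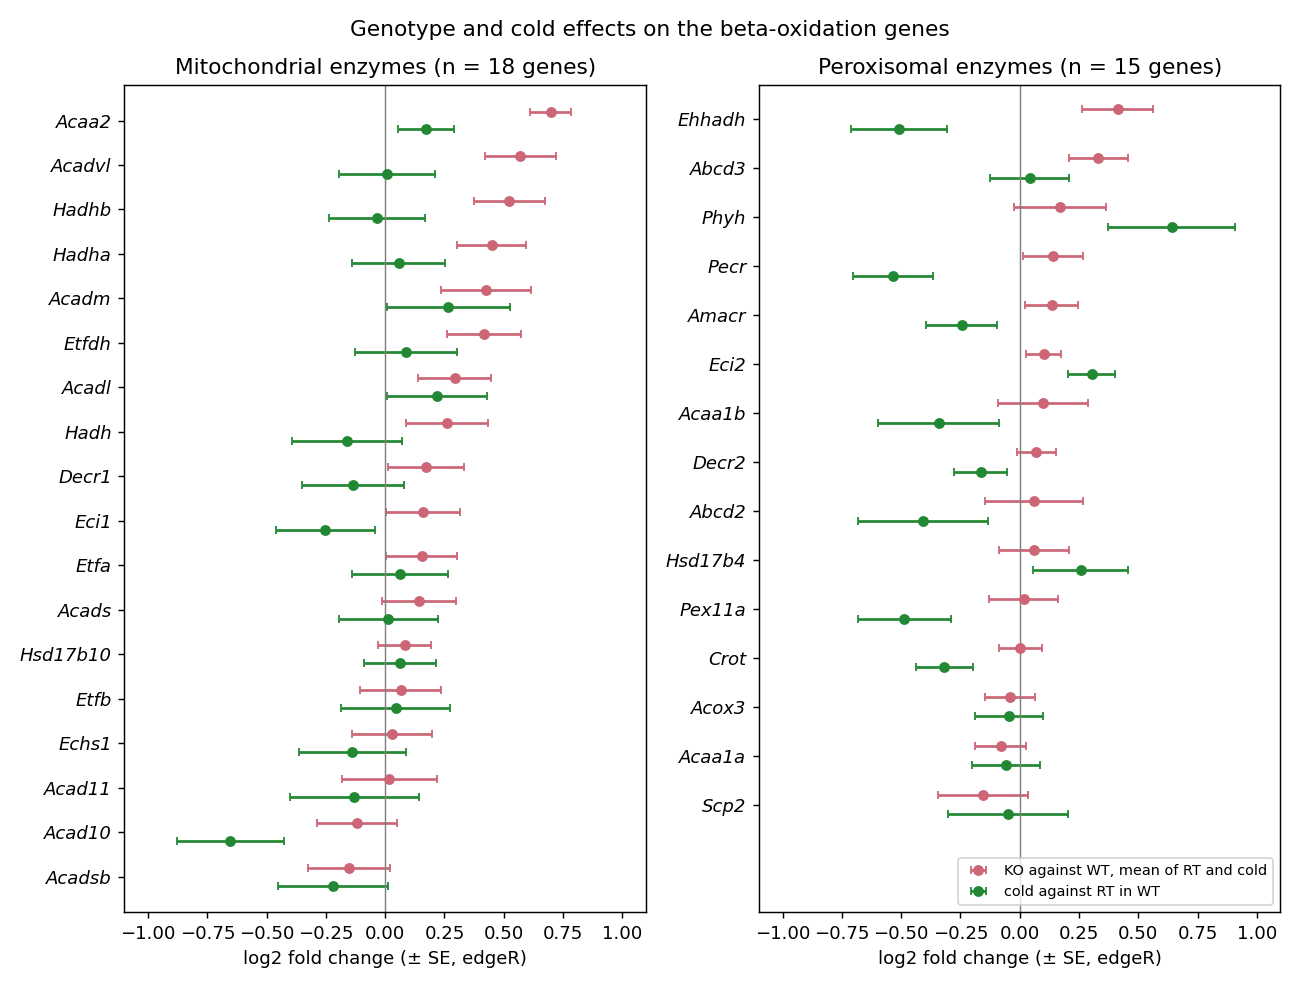
Log2 fold changes (± SE, edgeR) of the 18 mitochondrial and 15 peroxisomal members for KO-labelled against WT mice over both housings and for cold against RT in WT. Acaa2 has the highest genotype value (0.70), and Ehhadh lies at 0.41 for genotype and at -0.51 for cold.

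Acaa2 (ENSMUSG00000036880, chromosome 18, 74779197 to 74806208, GRCm38) had no overlapping gene among those counted. Its level was 109 and 105 CPM in the WT mice at RT and 112, 124 and 125 CPM in the WT mice in cold. In the KO-labelled mice it was 156 and 194 CPM at RT and 187 and 198 CPM in cold. Every KO-labelled library thus lay above every WT library. Over both housings this came to 0.70 ± 0.0868 (log2 fold change ± SE, adjusted p = 0.0247 in edgeR's quasi-likelihood test), with 0.72 at RT (adjusted p = 0.310) and 0.68 in cold (adjusted p = 0.174). With the housing of the titles the call was kept (adjusted p = 0.0332 in edgeR). The titles only exchange the mice 1781 and 1786 between the KO-labelled groups, so this mean hardly can change and does not check the labels. The call was also kept when the mice 1781 and 1786 were dropped (0.0292), and the log2 fold change stayed between 0.62 and 0.79 in all 15 alternatives. It was lost, with adjusted p of 0.0553 to 0.201 in edgeR, when any 1 of the mice 1781, 1782, 1814, 1773, 1783, 1812, 1788 or 1810 was left out, and kept only without mouse 1786 (0.0243).

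The first step of the mitochondrial cycle showed its clearest difference in Acadvl, the very-long-chain acyl-CoA dehydrogenase bound to the inner membrane. The WT mice had 243 and 243 CPM at RT and 229, 259 and 244 CPM in cold. The KO-labelled mice had 274 and 385 CPM at RT and 312 and 481 CPM in cold. Again no KO-labelled library overlapped a WT library, yet at 0.57 ± 0.149 (log2 fold change ± SE) Acadvl did not pass edgeR's test (adjusted p = 0.281). It passed at 0.82 (adjusted p = 0.0346) when the mice 1781 and 1786 were dropped, a setting in which 2 members and 0.301% of all genes passed. Acadvl and Dvl2, a Wnt signalling gene, share 42.9% of the exonic bases of Acadvl in GENCODE vM21, and the strand setting of the counting is not given in the sources used here. Dvl2 itself had 0.04 ± 0.130. The medium-chain enzyme Acadm had 294 and 295 CPM in WT at RT, 277, 364 and 422 CPM in WT in cold, 361 and 512 CPM in KO-labelled mice at RT and 324 and 539 CPM in cold. The genotypes overlapped there in cold (0.43 ± 0.190, adjusted p = 0.440). Acadl and the short-chain enzyme Acads had 0.29 and 0.14. Acad11, which acts on very long chains, had 0.02, Acad10, a relative of less settled function, -0.12 and Acadsb, which acts on short branched chains, -0.15. None of these passed.

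Electrons from the dehydrogenases reach the respiratory chain through ETFA and ETFB and then ETFDH, the flavoprotein's oxidoreductase. Etfdh had 137 and 139 CPM in WT at RT and 132, 149 and 159 CPM in WT in cold. It had 164 and 201 CPM in KO-labelled mice at RT and 145 and 251 CPM in cold, with an overlap of the genotypes in cold that came from mouse 1781. Etfdh came to 0.42 ± 0.158 (adjusted p = 0.381, edgeR). Etfa and Etfb had 0.15 and 0.06 (adjusted p above the threshold), so within this relay the values differed between subunits, without a test of that difference. Etfb, the most abundant member per length, ranged from 153 to 265 CPM in the KO-labelled and from 176 to 228 CPM in the WT libraries.

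The trifunctional protein genes had values close to each other. Hadha had 423 and 441 CPM in WT at RT and 406, 486 and 456 CPM in WT in cold, against 485 and 702 CPM in KO-labelled mice at RT and 509 and 709 CPM in cold. Hadhb had 284 and 302 CPM in WT at RT and 258, 304 and 296 CPM in WT in cold, against 315 and 479 CPM in KO-labelled mice at RT and 367 and 506 CPM in cold. For Hadhb no KO-labelled library overlapped a WT library, and for Hadha this held within each housing by column names, but not in cold by the titles. At 0.45 ± 0.146 for Hadha and 0.52 ± 0.150 for Hadhb, neither passed edgeR's test (adjusted p = 0.342 and 0.297). The separate enzymes for shorter chains had lower values, at 0.26 for Hadh, 0.03 for the hydratase Echs1 and 0.08 for Hsd17b10, and the auxiliary enzymes for unsaturated chains, Eci1 and Decr1, had 0.16 and 0.17.

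Over all 9 mice, 3 of the 33 members (Acaa2, Acadvl and Hadhb) were higher in every KO-labelled than in every WT library and 0 were lower, where 1.3% of all genes were higher in this way and 1.95% lower. Within RT and within cold, 4 members did not overlap in either housing, Hadha being the fourth, beside 3.67% of all genes higher and 4.41% lower. All 4 were mitochondrial. With the housing of the titles the count was also 4, with Etfdh in place of Hadha, beside 2.63% of all genes higher and 3.97% lower.

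**Figure D3:**
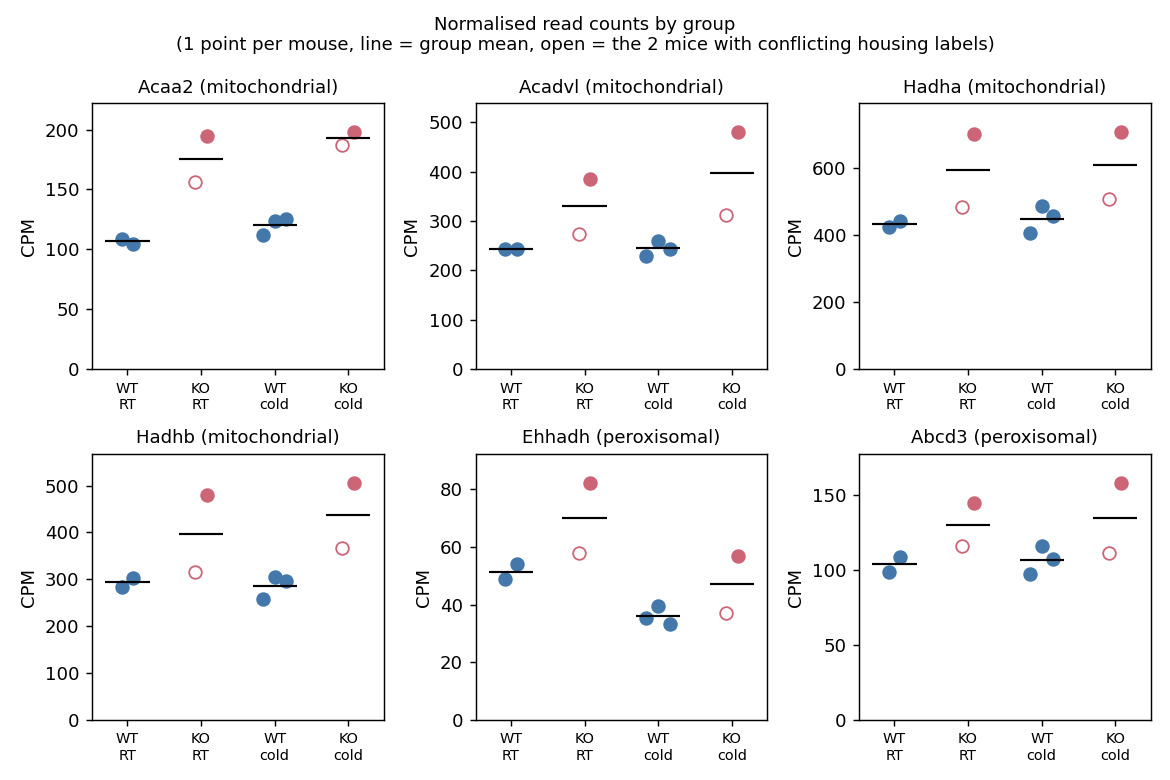
CPM of 6 members in each mouse by group, with the group mean as a line and open symbols for the 2 mice with conflicting housing labels. For Acaa2 the KO-labelled mice sit between 156 and 198 CPM and the WT mice between 105 and 125 CPM, while Ehhadh and Abcd3 overlap between genotypes.

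Among the peroxisomal members, Ehhadh, the bifunctional hydratase and dehydrogenase, had the highest genotype value. The WT mice had 48.8 and 54.0 CPM at RT and 35.3, 39.7 and 33.3 CPM in cold, and the KO-labelled mice had 57.8 and 82.3 CPM at RT and 37.2 and 56.9 CPM in cold. By column names the genotypes were apart at RT and overlapped in cold, and by the titles they overlapped at RT and were apart in cold (mean 0.41 ± 0.150, adjusted p = 0.368 in edgeR). Abcd3, a half-transporter that brings acyl-CoAs into peroxisomes, had 98.8 and 109 CPM in WT at RT and 97.1, 116 and 107 CPM in WT in cold, against 116 and 145 CPM at RT and 112 and 158 CPM in cold in the KO-labelled mice. Abcd3 came to 0.33 ± 0.124 (adjusted p = 0.375, edgeR). The other 13 peroxisomal members lay between -0.16 (Scp2) and 0.17 (Phyh), and 0 of these had an unadjusted p under 0.05. On the oxidation route, Acox3, an oxidase for branched chains, had -0.04, the multifunctional enzyme Hsd17b4 had 0.06, and the racemase gene Amacr had 0.14. The reductases Decr2 and Pecr had 0.07 and 0.14, and the isomerase gene Eci2 had 0.10. For transport and division, Abcd2 had 0.06, Crot 0.00 and Pex11a 0.02. Scp2, the peroxisomal member of highest count, had 457 to 565 CPM in the WT libraries and 304 to 607 CPM in the KO-labelled libraries. Acaa1a and Acaa1b, the peroxisomal thiolases, are near-identical copies whose reads may be lost when only uniquely mapped reads are kept, and they had -0.08 and 0.10. Acaa1b gave 13.0% to 20.5% of their joint counts, and its level is uncertain for that reason.

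Housing by housing, Acaa2 was the member with an unadjusted p under 0.05 in both. At RT, 0 members passed in edgeR's test beside 0.0358% of all genes, and 1 (Acaa2) was higher and 0 lower at an unadjusted p under 0.05, beside 2.68% higher and 4.72% lower. In cold, 0 members passed beside 0.0776% of all genes. At an unadjusted p under 0.05 in cold, 3 were higher (Acaa2, Acadvl at 0.70 and Hadhb at 0.61) and 0 lower, beside 3.32% and 2.77%. DESeq2 called 1 member, Acaa2, in each housing (adjusted p = 5.13e-04 at RT and 3.39e-04 in cold), beside 0.711% of all genes at RT and 0.603% in cold. The RT and cold comparisons use different mice, and 15 of 18 mitochondrial and 10 of 15 peroxisomal members had the same sign in both (64.5% of all genes). With the housing of the titles these were 8 of 18 and 5 of 15 (55.2% of all genes). The difference of the genotype effects between cold and RT was tested directly and 0 members passed in edgeR, beside 0% of all genes, and 0 in DESeq2, beside 0.0299%. By column names, the lowest unadjusted p among the members in edgeR was 0.0646 and 0 had a p under 0.05. With the housing of the titles, Pecr (0.92), Acad10 (1.04), Acaa1b (0.90) and Acadsb (0.68) had an unadjusted p under 0.05 in edgeR. The lowest of these was 0.00342 (Pecr), and the adjusted p was 0.958 for each.

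The second question was what 4 h of cold did in WT mice, a comparison between mice whose labels do not conflict. In edgeR 0 members passed, beside 0.37% of all genes, and DESeq2 also called 0, beside 2.88% of all genes. The spread in the fit is shared with the KO-labelled mice, and with the housing of the titles 0% of all genes passed in edgeR. At an unadjusted p under 0.05, 5 members were lower (1 mitochondrial and 4 peroxisomal) and 2 higher (both peroxisomal), where 7.13% of all genes were lower and 6.04% higher. The peroxisomal median was -0.16, with 11 of 15 members negative, and the mitochondrial median was 0.01, with 8 of 18 negative, beside -0.01 over all genes. The WT groups did not overlap for 9 members that were lower in cold and 4 that were higher, beside 17.7% and 15.7% of all genes.

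Of the 6 peroxisomal members with an unadjusted p under 0.05, 4 were lower and 2 higher in cold. Pecr, the trans-2-enoyl-CoA reductase, had 13.0 and 13.3 CPM at RT and 8.99, 9.75 and 8.48 CPM in cold in WT (log2 fold change ± SE -0.53 ± 0.169, adjusted p = 0.233 in edgeR). Crot, which makes carnitine esters of shortened chains for export to mitochondria, had 54.4 and 50.5 CPM at RT and 35.8, 44.7 and 45.7 CPM in cold (-0.32 ± 0.121, adjusted p = 0.317). All the cold values of both genes lay below the RT values. Pex11a, a membrane protein of peroxisome division, had 24.7 and 28.6 CPM at RT and 16.3, 22.4 and 18.4 CPM in cold (-0.49 ± 0.196), and Ehhadh, with the values given above, had -0.51 ± 0.201. Eci2, an isomerase for unsaturated chains, went the other way, with 85.9 and 81.9 CPM at RT and 105, 107 and 98.8 CPM in cold (0.30 ± 0.0993, adjusted p = 0.249). Phyh had 233 and 193 CPM at RT and 362, 415 and 219.6 CPM in cold (0.64 ± 0.267, adjusted p = 0.355), where 1 cold mouse, 1812, lay among the RT mice. Hence these 6 genes did not share 1 direction in their values, and none of them passed the thresholds.

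Among mitochondrial members in WT, Acad10 had 29.7 and 27.7 CPM at RT and 17.1, 22.8 and 14.8 CPM in cold, without overlap (-0.65 ± 0.224, adjusted p = 0.271 in edgeR). Acaa2 had 0.17 ± 0.118 and Eci1, the mitochondrial isomerase, -0.25 ± 0.208, from 115 and 122 CPM at RT to 83.2, 114 and 101 CPM in cold. Acadl, the second most abundant member per length, had 352 and 312 CPM at RT and 367, 413 and 381 CPM in cold (0.22 ± 0.211). Acadvl, Hadha and Hadhb, which stood apart by genotype, had cold values of 0.01, 0.06 and -0.03 in WT.

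**Figure D4:**
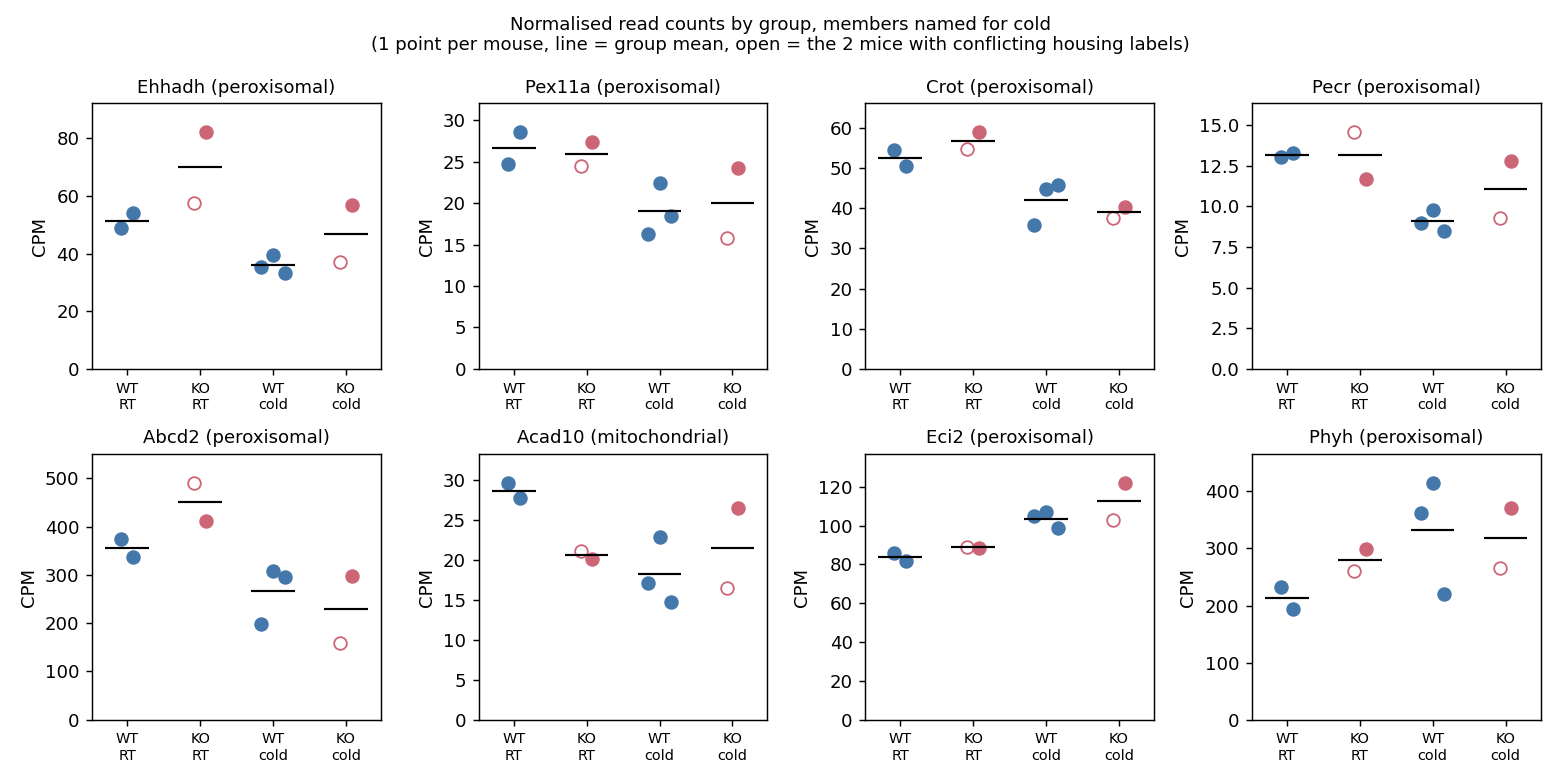
CPM of 8 members in each mouse by group, with the group mean as a line and open symbols for the mice with conflicting housing labels. In WT mice Ehhadh, Pex11a, Crot, Pecr, Abcd2 and Acad10 are lower in every cold than in every RT library and Eci2 is higher, while Phyh overlaps.

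In the KO-labelled mice the cold comparison rests on 1 mouse per group with undisputed housing. By column names, 0 members passed in edgeR beside 0.334% of all genes, and at an unadjusted p under 0.05, 3 were lower and 1 higher beside 6.89% and 8.67% of all genes. Abcd2, a transporter for very-long-chain acyl-CoAs, had 491 and 412 CPM at RT and 159 and 299 CPM in cold, against 373 and 336 CPM and 198, 307 and 296 CPM in WT. In the KO-labelled mice this came to -0.98 ± 0.306 (adjusted p = 0.190, edgeR), and DESeq2 called it (-0.99, adjusted p = 0.0349) as 1 of 33 members, near the 3.61% of all genes that it called, but with the housing of the titles it was 0.47. Crot had 54.7 and 59.0 CPM at RT and 37.5 and 40.4 CPM in cold (-0.55 ± 0.133, adjusted p = 0.124). Ehhadh had -0.58 ± 0.223 and Eci2 0.34 ± 0.108. With the housing of the titles these 3 genes had -0.02 (Crot), -0.06 (Ehhadh) and 0.14 (Eci2), so the cold values of the KO-labelled mice rest on the disputed labels. Of the 15 peroxisomal members, 15 had the same sign of the cold effect in WT and in KO-labelled mice, which are different animals, beside 71.4% of all genes, and 13 of 18 mitochondrial members did. With the housing of the titles the counts were 7 of 15 and 9 of 18 beside 50.7%.

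The spread between mice was large beside these effects. Of the 33 members, 20 had their highest CPM in mouse 1782, while 13 had their lowest in mouse 1781 and 13 in mouse 1773. Relative to WT at RT, the median of the mitochondrial members was 0.11 and 0.26 (log2) in the KO-labelled mice 1786 and 1814 at RT, -0.26 and 0.44 in the KO-labelled mice 1781 and 1782 in cold, and -0.15, 0.10 and 0.00 in WT mice 1773, 1783 and 1812 in cold. The peroxisomal medians of the mice in cold were -0.42 and 0.11 (KO-labelled) and -0.26, -0.03 and -0.17 (WT). The KO-labelled mice in cold thus held both the lowest and the highest library. Without mouse 1782, the median genotype effect of the mitochondrial members in cold went from 0.23 to -0.16, and over both housings from 0.16 to -0.03, and without mouse 1781 the one in cold went to 0.52. Acaa2, Acadvl, Hadha and Hadhb were above all WT mice in cold even in mouse 1781.

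**Figure D5:**
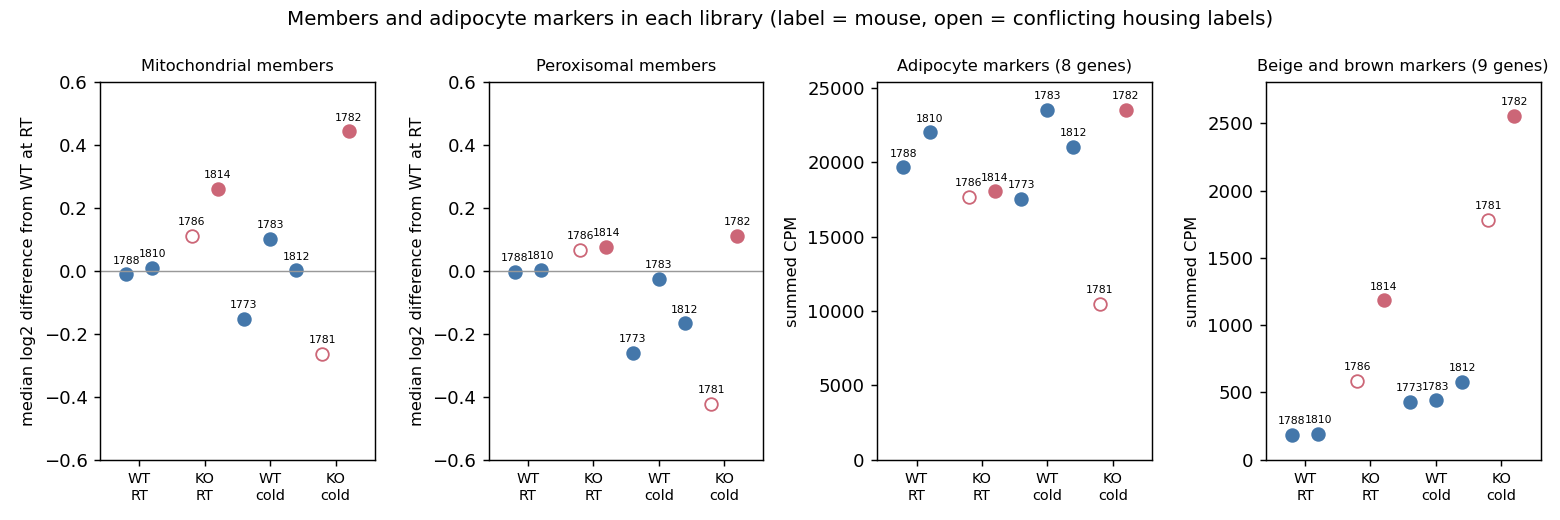
Per library, the median log2 difference from WT at RT over the 18 mitochondrial and the 15 peroxisomal members, and the summed CPM of 8 adipocyte and 9 beige and brown adipocyte markers. Mouse 1781 is lowest for both compartments and for adipocyte markers (10464 CPM), and the KO-labelled mice lead in beige and brown markers within each housing.

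The summed level of the beige and brown adipocyte markers differed between the groups, while the sums of the other cell type lists overlapped between the genotypes over all 9 mice. At RT by column names, the adipocyte, macrophage, fibroblast and progenitor, mammary epithelial and neutrophil sums were lower in both KO-labelled mice than in both WT mice. With the housing of the titles, of these only the adipocyte sum was. The 9 beige and brown adipocyte markers, which include Ucp1 and Cidea, summed to 182 and 192 CPM in WT at RT, 428 to 578 CPM in WT in cold, 583 and 1184 CPM in KO-labelled mice at RT and 1784 and 2553 CPM in cold. The 10 macrophage markers summed to 961 to 1432 CPM in the WT and 589.5 to 1236 CPM in the KO-labelled libraries. At RT by column names they summed to 1432 and 1067 CPM in WT and 589.5 and 843 CPM in KO-labelled mice. DESeq2 called 2 of them, C1qb and C1qc, in the genotype effect over both housings, beside 1.4% of all genes. The 12 skeletal muscle markers summed to 38.0 to 96.3 CPM in WT and 45.3 to 91.0 CPM in KO-labelled libraries, and none of these 3 lists held a gene at 0 in every library. Most of the muscle sum came from Acta1 and Mb. Over both housings, 7 of the 12 muscle markers were higher and 1 lower in KO-labelled mice at an unadjusted p under 0.05. Their median log2 fold change was 0.98, and of all genes 5.14% were higher and 6.48% lower at this p. In edgeR 0 muscle markers were called beside 0.125% of all genes, and in DESeq2 4 (Ckm, Atp2a1, Tnnt3 and Actn3) beside 1.4%. In cold this median was 1.21, again with 7 higher and 1 lower, beside 3.32% and 2.77% of all genes. The 9 fibroblast and progenitor markers summed to 14180 CPM in mouse 1781 and 13755 CPM in mouse 1773, beside 9389 to 12430 CPM in the other libraries. In the mice 1781 and 1773, 13 members each had their lowest value. The part of these marker lists in the members' values was not tested. The summed CPM of the mitochondrial members was 3598 to 5654 in the KO-labelled and 3292 to 4046 in the WT libraries. These overlapped, with the KO-labelled mice 1781 (3598) and 1786 (4033) below WT mouse 1783 (4046). As a ratio to the adipocyte markers of the same library, this sum was 0.228 to 0.344 in the KO-labelled libraries. In the WT libraries it was 0.171 to 0.188, without overlap. The sums of the tricarboxylic acid cycle and carnitine shuttle genes described below also separated the genotypes in this ratio. The separation was thus not particular to the members, and how many other lists would separate was not computed. The adipocyte marker sums of the KO-labelled mice 1786 and 1814 (17696 and 18048 CPM) were below those of both WT mice at RT (19665 and 22019 CPM). The value of 0.344 was that of mouse 1781, whose adipocyte marker sum was lowest, and the other KO-labelled libraries had 0.228 to 0.279. For the peroxisomal members this ratio was 0.0937 to 0.132 and 0.0833 to 0.0971, and the genotypes overlapped. The mitochondrial sum was 2.02 to 2.60 times the peroxisomal sum in the KO-labelled and 1.93 to 2.16 times in the WT libraries, with an overlap.

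Genes around the pathway, on lists chosen with earlier results known, are given for context. In the genotype effect over both housings, 17 of 17 genes of the tricarboxylic acid cycle, which burns the acetyl-CoA made by beta-oxidation, had positive values (median 0.34). Of these, 8 had an unadjusted p under 0.05 in edgeR, where 5.14% of all genes were higher. In edgeR 0 were called beside 0.125% of all genes, while DESeq2 called 2, Sucla2 among them, beside 1.4%. Their summed CPM was 7703 in mouse 1782 and 4911 in mouse 1781, the latter below WT mouse 1783 (5032). Sucla2, a succinyl-CoA ligase subunit, had 0.66 (adjusted p = 0.204, edgeR) and Idh3a had 0.60. Of the 7 carnitine shuttle genes, which bring fatty acids into mitochondria, 1 was called, the muscle-type transferase Cpt1b (3.10, adjusted p = 0.00119), and the median was 0.16. The 20 other beta-oxidation genes in the table had a median of 0.08 with 0 called in either tool, and 2 were higher at an unadjusted p under 0.05, Acox2, an oxidase for branched chains and bile acid precursors, at 0.80 and Slc25a17, a peroxisomal cofactor carrier, at 0.25. The 15 peroxisome biogenesis genes had a median of 0.02 and 0 had an unadjusted p under 0.05. In WT mice in cold, 0 genes of these 4 lists were called in edgeR and 1 in DESeq2 (Cpt1b). There Slc25a17 (0.56, adjusted p = 0.166), Cpt1b (0.95, adjusted p = 0.217) and Pex6 (-0.42, adjusted p = 0.318) had the lowest p in the lists of other beta-oxidation, carnitine shuttle and peroxisome biogenesis genes.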

How the data were processed

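Sequencing reads (BGISEQ) were aligned to mm10 with STAR and only uniquely mapped reads were counted per gene with featureCounts by the authors, who deposited the raw counts and RPKM values in 1 table; their versions, the annotation and whether strand was used are not given in the sources. The counts were used as deposited, and the RPKM values deposited by the authors served for levels per length only. The table names 2 KO-labelled mice with another housing than their titles; column names were followed, and 2 RPKM columns of these mice were not used.

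All 9 libraries entered 1 fit in edgeR 4.0.16 (R 4.3.3, limma 3.58.1): filterByExpr, TMM, 4 groups, glmQLFit with robust estimation and glmQLFTest, with Benjamini-Hochberg adjustment over 16745 genes. Genes were called at adjusted p under 0.05 and fold change above 1.5, the difference of genotype effects at the adjusted p alone. CPM are TMM-scaled. The pipeline was tested on simulated data. DESeq2 1.42.0, RLE scaling, other filters, other groupings of the mice, fits of the compared libraries alone, an additive model and leaving out each mouse were alternatives. Values per library were given for members called in any comparison, for the 3 mitochondrial and 3 peroxisomal members of the lowest p in the genotype comparisons and in cold in WT, for the most abundant members, and for Etfdh, Pex11a and Abcd2, which were added after their values were seen. For Pecr, Eci2, Phyh, Acad10, Eci1, Acadl and Pex11a the text prints the WT libraries only. For Etfb and Scp2 it prints ranges. Members and lists were chosen with earlier results of these data known. Positions came from GENCODE vM21 (23876 symbols matched), promoters from RefSeq; motifs other than DR1 were added after the data were seen. Figures used matplotlib 3.10.9 in Python 3.11.15. The values of some genes are not reported here.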

Additional observations from a re-analysis of the deposited data

How the results depend on the processing

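Leaving out 1 mouse moved the count of called members in the mean genotype effect between 0 and 1. Leave-one-out medians of the mitochondrial members ranged from -0.16 to 0.52 for KO-labelled against WT in cold, from -0.40 to 0.30 for cold in the KO-labelled mice and from -0.41 to 0.33 for the difference of genotype effects. Those of the peroxisomal members ranged from -0.27 to 0.23, from -0.39 to 0.044 and from -0.32 to 0.17 in the same comparisons. All these extremes came from leaving out mouse 1781 or 1782. With the housing of the sample titles, the mitochondrial median went from 0.18 to -0.002 for genotype at RT, from 0.02 to 0.22 for cold in the KO-labelled mice and from 0.02 to 0.23 for the difference of genotype effects. The peroxisomal median went to -0.12 for genotype at RT, to 0.17 for cold in the KO-labelled mice and to 0.31 for the difference of genotype effects, and Abcd2 turned from -0.98 to 0.47 in that cold comparison. Without both mice of conflicting labels, the mitochondrial median in cold was 0.52, the peroxisomal median for cold in the KO-labelled mice was 0.12, and 2 members (Acaa2 and Acadvl) were called in the mean genotype effect, beside 0.301% of all genes. DESeq2 called 1 member for genotype at RT, 1 in cold (Acaa2 in both) and 1 for cold in the KO-labelled mice (Abcd2), beside 0.711%, 0.603% and 3.61% of all genes. Over the 15 alternatives, 8 of 18 mitochondrial and 7 of 15 peroxisomal members kept a positive sign in the mean genotype effect. No paired analysis was possible because the replicate numbers are those of single mice and no number is shared between groups. With 2 or 3 mice a group, the spread between mice is estimated from few libraries.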
